A study of Mus musculus with 18 samples.

Results

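Water and salt transport genes of the pancreatic duct were examined in 18 RNA libraries of mouse pancreatic tumour cells: the water channels Aqp1, Aqp3 and Aqp5, the FXYD proteins Fxyd3 and Fxyd5, the sodium pump subunit Atp1b1, the cotransporter Slc12a2 and the chloride channel Cftr. These 8 genes, of 35642 gene symbols measured, were chosen by measured values: the falls of Aqp1 and Fxyd3 TPM in cells of line 1151 labelled as Mcu knockout. The 1151 values are therefore given as a description without a test. The rule used no value of line 2838, which was tested, though earlier results of that line were known.

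All cells came from tumours of KPCY mice. Their alleles are KrasLSL-G12D/+ with Trp53 LSL-R172H/+, the Pdx1-Cre driver and the reporter R26LSL-Yfp/LSL-Yfp, and some lines had floxed Mcu. Pdx1-Cre recombines these alleles in the pancreatic epithelium from early development. The tested gene is Mcu, which encodes the pore of the mitochondrial calcium uniporter. In line 1151, Mcu was removed with Cre recombinase, and the cells carried an empty vector (labelled knockout) or MCU (labelled re-expressing). Both kinds of 1151 cells were kept in puromycin. Line 2838 gave CRISPR knockout clones 17 and 42 and wild-type clones 15 and 22. For the wild-type clones an empty vector is stated, and for the knockout clones no vector is. Each of the 6 groups had 3 libraries, all from untreated cells in culture, and each 2838 group was 1 clone. The labels give batch 1 for every 1151 library and batch 2 for every 2838 library. Line and batch cannot be told apart, and levels were not tested between lines.

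In ductal epithelium, water follows salt. The sodium pump sets the sodium gradient, Slc12a2 (NKCC1) uses it to load chloride across the basolateral membrane, Cftr lets anions out into the lumen, and aquaporins let water pass. FXYD proteins are small membrane proteins that bind the sodium pump and tune its activity. In human tumours Fxyd3 (also called Mat-8) and Fxyd5 (dysadherin) are known as cancer-associated members of that family.

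The stretch of 250 bases before the RefSeq start (GRCm38.p6) is shown for 3 genes because they had the widest span of group levels among the 8. Capitals mark matches, on either strand, to 5 short motifs, which are the TATA box TATAAA, the CCAAT box CCAAT, the GC box GGGCGG, the E-box CACCTG and the TEAD motif GGAATG. No 2 matches overlap in these stretches. Aqp1 lies at chr6:55336049-55336298 on the plus strand, Fxyd3 at chr7:31076698-31076947 and Fxyd5 at chr7:31042332-31042581, both on the minus strand.
Aqp1: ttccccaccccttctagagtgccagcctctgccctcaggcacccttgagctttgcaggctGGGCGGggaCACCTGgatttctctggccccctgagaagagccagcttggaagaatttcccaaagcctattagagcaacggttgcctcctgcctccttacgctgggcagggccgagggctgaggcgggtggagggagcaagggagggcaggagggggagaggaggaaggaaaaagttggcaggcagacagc
Fxyd3: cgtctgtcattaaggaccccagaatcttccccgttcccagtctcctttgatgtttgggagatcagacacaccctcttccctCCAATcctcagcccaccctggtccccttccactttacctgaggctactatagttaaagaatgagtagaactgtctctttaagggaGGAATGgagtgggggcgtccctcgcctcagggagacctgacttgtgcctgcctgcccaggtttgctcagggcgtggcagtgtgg
Fxyd5: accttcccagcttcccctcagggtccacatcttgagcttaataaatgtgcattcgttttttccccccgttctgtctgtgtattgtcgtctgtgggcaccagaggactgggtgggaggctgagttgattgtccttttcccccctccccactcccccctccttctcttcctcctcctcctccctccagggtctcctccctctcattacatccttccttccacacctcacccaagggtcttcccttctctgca
The stretches of Aqp1 and Fxyd3 had no motif in common. Aqp1 held 1 GC box, starting 190 bases before the start, and 1 E-box at 181. Fxyd3 held 1 CCAAT at 169 and 1 GGAATG at 84, and Fxyd5 held none of the 5. The Fxyd5 stretch reaches to 31042332, inside the gene as annotated in GENCODE M21, which ends at 31042481. The Fxyd3 stretch, from 31076698, also enters its annotated gene, which ends at 31076704. That of Aqp1 ends at 55336298, short of the annotated gene start at 55336432. Only the first listed start of each gene was used, and motif matches depend on that start. Among 32851 promoters of that length, 32.7% hold a GC box, 17.2% the E-box, 33.8% CCAAT, 12.6% GGAATG and 12.4% TATAAA. Sequences were found for 7 of the 8 genes; Slc12a2 had no entry.

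By position, Fxyd3 (31068172 to 31076704) and Fxyd5 (31032722 to 31042481) are neighbours on the minus strand of chromosome 7 (mm10, GENCODE M21), 25690 bases apart, with Fxyd1 and Fxyd7 between them. Fxyd1 was listed at 0 in all 18 libraries, and Fxyd7 averaged at most 0.284 TPM in any group. Aqp5 lies on chromosome 15 (99590782 to 99594829) between Aqp2 and Aqp6, neither of which averaged more than 0.0508 TPM in a group. Aqp1 (55336432 to 55348555) and Cftr (18170687 to 18322768) are both on chromosome 6. The other genes are scattered: Aqp3 on chromosome 4 (41092722 to 41098183), Atp1b1 on 1 (164437109 to 164458355) and Slc12a2 on 18 (57878678 to 57946821).

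Mcu RNA did not follow the labels throughout. In 1151 it averaged 15.03 ± 1.63 TPM with the knockout label and 14.3 ± 1.06 TPM after re-expression (SD, n = 3 each). In 2838 it was 119 ± 4.79 TPM in knockout clone 17 and 11.4 ± 0.888 TPM in knockout clone 42, against 75.2 ± 6.44 TPM in wild-type clone 15 and 83.3 ± 20.8 TPM in wild-type clone 22 (SD, n = 3 each). "Knockout" and "wild-type" below therefore mean the libraries as labelled. TPM is corrected for transcript length and fixed to 1 total per library, and the depth behind it was unknown. Libraries had 10760 to 11507 genes at 1 TPM or more. Replicate 3 of wild-type clone 22 stood apart: its upper quartile of 3.73 TPM lay below the 6.36 to 7.85 TPM of the other 17 libraries. Most clone-pair results in 2838 are given with and without it, and clone-mean differences without it are given near the end. Among the ductal epithelial markers, Krt19, Krt7, Krt8, Krt18, Cdh1, Sox9 and Muc1 exceeded 1 TPM on average in every group. Epcam averaged 1.33 TPM in 1151 cells labelled knockout and at most 0.655 TPM in the other groups. Cldn4 averaged 6.15 TPM there and at most 0.720 TPM elsewhere. Of the markers of other pancreatic cells, 5 of 8 acinar and 5 of 6 endocrine genes, insulin and glucagon among them, were listed at 0 in all 18 libraries. The acinar sum was at most 0.695 TPM in 1151. In 2838 it was 11.8 to 14.5 TPM in knockout clone 17 and 9.35 to 12.4 TPM in knockout clone 42, against 22.1 to 28.9 TPM in wild-type clone 15 and 16.5 to 24.4 TPM in wild-type clone 22, nearly all of it Cela1. Its part in the results below was not tested.

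Of the 8 genes, 6 were above 1 TPM in every library (lowest 1.32 TPM) and passed the filter of 1 TPM in at least 3 libraries. Aqp3 and Cftr did not pass in either line. The plot of TPM by library shows all 8.

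**Figure D1:**
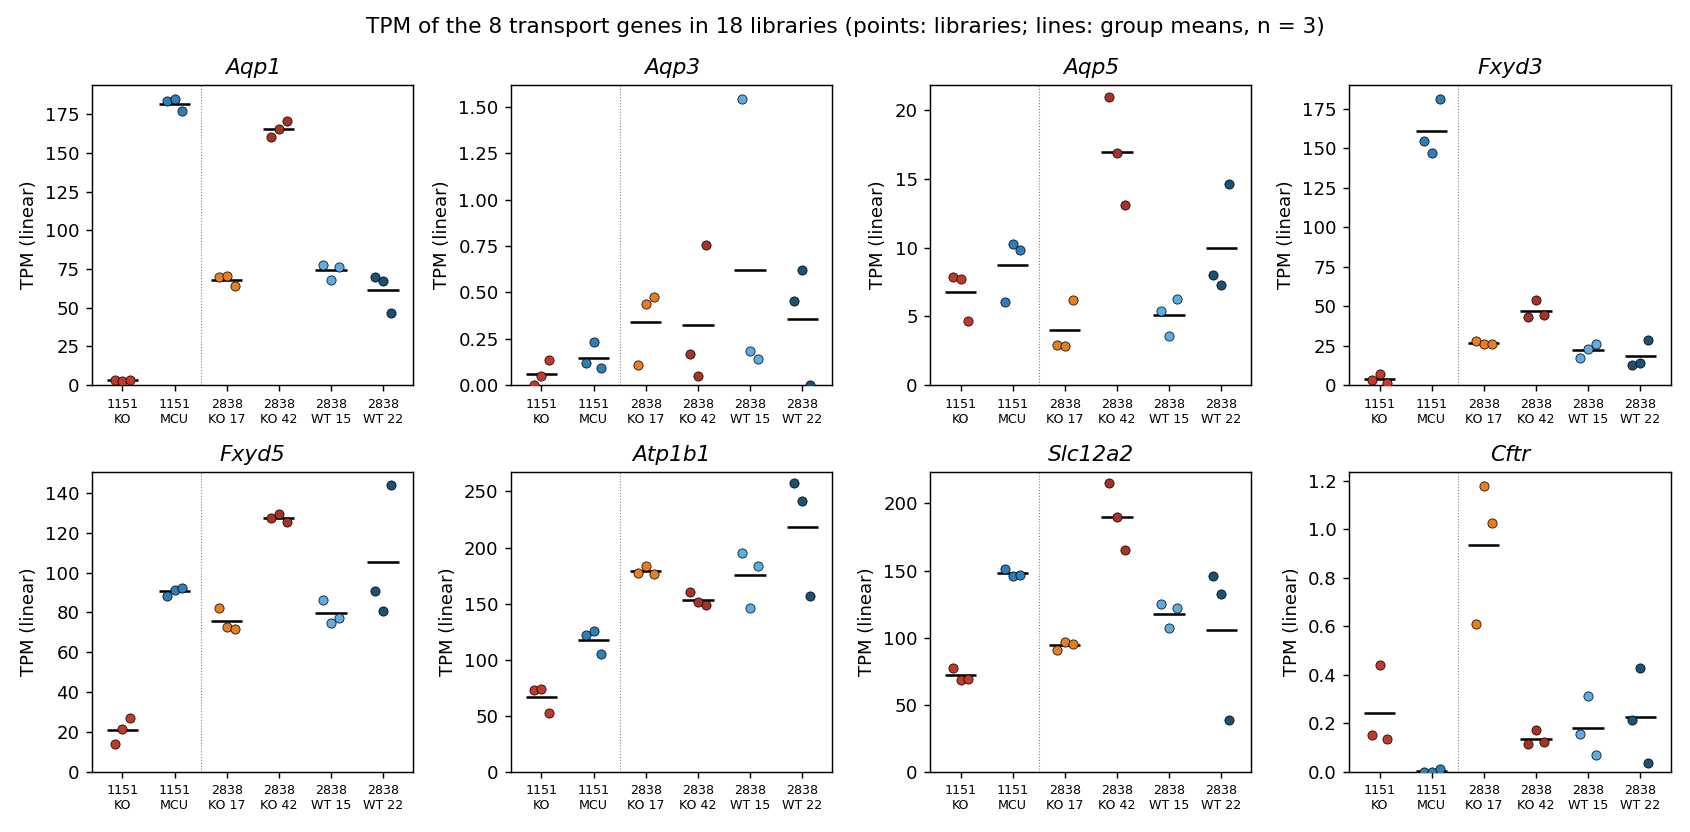
TPM (linear axes, each from 0) of the 8 genes in each library (points) with the group mean (line, n = 3), the 1151 groups left of the dotted line and the 2838 clones right of it. Aqp1 averaged 3.13 TPM in 1151 cells labelled knockout (1151 KO) and 182 TPM in re-expressing cells (1151 MCU), and clone 42 (2838 KO 42) stood at 165 TPM above the other 2838 clones.

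Aqp1 was the most abundant water channel in every group but the 1151 cells labelled knockout. Aqp1 measured 3.40, 2.90 and 3.08 TPM in 1151 cells labelled knockout and 184, 185 and 177 TPM in the re-expressing cells. Every knockout library was far below every re-expressing one, a difference of 58.1-fold in the means and of -5.47 in log2(TPM + 1). Fewer cells that express a gene and less RNA per cell cannot be told apart in such bulk libraries. The median difference of the 537 tested genes on chromosome 6 was 0.27, so the median of its chromosome had the other sign.

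Aqp1 is also a marker of endothelium, kidney tubule and red cells. The summed TPM of 4 endothelial markers was 8.32 to 8.77 in 1151 cells labelled knockout and 5.60 to 6.10 in re-expressing cells, but its members differed in direction. Kdr averaged 8.51 TPM in 1151 cells labelled knockout and 0.767 TPM in re-expressing cells, while Cdh5 averaged 0.00568 TPM in 1151 cells labelled knockout and 4.93 TPM in re-expressing cells, the direction of Aqp1. Pecam1 averaged at most 0.289 TPM in any group. The sum of 5 kidney and erythroid markers was 2.31 to 3.48 TPM in 1151 cells labelled knockout and 1.34 to 1.705 TPM in re-expressing cells. Its members also differed: Lrp2 averaged 2.58 TPM in 1151 cells labelled knockout and 0.00681 TPM in re-expressing cells, and the haemoglobin gene Hba-a1 averaged 0.146 TPM in 1151 cells labelled knockout and 0.997 TPM in re-expressing cells. Alas2, another erythroid marker, averaged 0.194 TPM in 1151 cells labelled knockout and 0.456 TPM in re-expressing cells. In 2838 the sum was 10.7 to 19.5 TPM in knockout clone 42 and 20.6 to 35.0 TPM in knockout clone 17, against 7.96 to 43.2 TPM over both wild-type clones. There it was mostly Lrp2, and the kidney tubule marker Umod was listed at 0 in all 18 libraries. Sums of 7 fibroblast markers stayed at or below 1.05 TPM. Those of 6 immune markers were 5.46 to 6.16 TPM in knockout clone 42 and 3.38 to 4.11 TPM in knockout clone 17, against 2.70 to 6.32 TPM over both wild-type clones. Their part in the results was not tested.

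In 2838 the same gene was highest in knockout clone 42, a direction opposite to that in 1151. Aqp1 measured 160.0, 165 and 170.3 TPM in knockout clone 42 and 69.8, 70.3 and 64.1 TPM in knockout clone 17. The wild-type clones had 77.7, 68.0 and 76.4 TPM (clone 15) and 69.6, 67.2 and 46.7 TPM (clone 22). Clone 42 was 2.44 times the mean of the wild-type libraries, without overlap, while clone 17 lay among them.

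Clone 42 exceeded wild-type clone 15 by 1.15 (SE 0.14) in log2(TPM + 1), with a limma adjusted p of 3.88e-04 over all genes. The difference from wild-type clone 22 was 1.44 (limma adjusted p = 1.21e-04) and that from knockout clone 17 was 1.27 (1.74e-04 by the same fit). Clone 17 differed from clone 15 by -0.12 (SE 0.14, limma adjusted p = 0.699) and from clone 22 by 0.17 (SE 0.14, limma adjusted p = 0.506). Without clone 22 replicate 3, the differences of clone 42 from clones 15, 22 and 17 were 1.15, 1.26 and 1.27 (limma adjusted p = 1.60e-06, 3.48e-06 and 6.88e-07). Such fits measure the spread between libraries of a clone, which may be technical. With the clone as the unit, 2 clones against 2, the difference of knockout from wild type was 0.66 (SE 0.36, limma adjusted p = 0.999).

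Aqp5, an apical water channel of glandular epithelia, was low throughout. It measured 7.85, 7.75 and 4.63 TPM in 1151 cells labelled knockout and 6.08, 10.3 and 9.84 TPM in re-expressing cells, and these overlapped. In 2838 it stood at 21.0, 16.9 and 13.1 TPM in knockout clone 42 and at 2.90, 2.86 and 6.17 TPM in knockout clone 17. The wild-type libraries lay between 3.56 and 6.29 TPM in clone 15 and between 7.30 and 14.7 TPM in clone 22. By its means, Aqp5 was thus highest in clone 42 and lowest in clone 17, both labelled knockout, with a log2 difference of 1.89 (SE 0.32, limma adjusted p = 0.00219). Clone 17 was not called against wild-type clone 15 (-0.33, limma adjusted p = 0.616) or clone 22 (-1.15, 0.0589).

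Against wild-type clone 15, Aqp5 was higher in clone 42 by 1.57 (limma adjusted p = 0.00833). Against wild-type clone 22 the difference of 0.75 (SE 0.32) had an adjusted p of 0.165 in limma, and 1.03 (0.0248) without clone 22 replicate 3, which held the 14.7 TPM. Without that library the adjusted p in limma was 0.00114 against clone 15 and 2.62e-04 against clone 17. On clone means it was 0.21 (SE 0.55, limma adjusted p = 0.999).

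Aqp3, which also passes glycerol, was near 0 in every group. The highest library, replicate 1 of wild-type clone 15, had 1.54 TPM, and the other 17 were at or below 0.756 TPM. Of all 12 aquaporin genes, Aqp1 made up 27.0%, 22.0% and 32.1% of the summed TPM in 1151 cells labelled knockout and 93.1%, 90.5% and 91.1% in the re-expressing cells. In 2838 its share lay between 84.4% and 89.3% in knockout clone 42, between 70.8% and 78.2% in knockout clone 17, and between 66.7% and 84.1% in the wild-type clones. The summed aquaporin TPM was 9.60 to 13.2 in 1151 cells labelled knockout and 194 to 204 in the re-expressing cells.

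Fxyd3 paralleled Aqp1. It measured 3.21, 7.15 and 1.32 TPM in 1151 cells labelled knockout and 154, 147 and 181 TPM in the re-expressing cells, without overlap. The means differed 41.3-fold and the log2 difference was -5.23, ranging from -5.69 to -4.78 as single libraries were left out. The 3 knockout libraries spread over a wide range for their level. The median of the 871 genes tested on chromosome 7 was -0.035.

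In 2838, Fxyd3 had 42.9, 53.9 and 44.3 TPM in knockout clone 42 and 27.7, 25.8 and 25.9 TPM in knockout clone 17. Wild-type clone 15 had 17.4, 23.0 and 26.1 TPM, and wild-type clone 22 had 12.6, 13.8 and 28.3 TPM. Clone 42 was above every other library. Clone 17 overlapped both wild-type clones, clone 22 through its replicate 3 alone.

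Fxyd3 was higher in clone 42 than in wild-type clone 15 by a log2 of 1.06 (SE 0.26, limma adjusted p = 0.0214) and than in wild-type clone 22 by 1.404 (0.00591). The clone 15 call was lost in 8 of 19 alternatives (limma adjusted p up to 0.0911), among them the fits without WT15 replicate 1 (adjusted p = 0.0765), WT15 replicate 2 (0.0596), KO42 replicate 1 (0.0548), KO42 replicate 2 (0.0911) and KO42 replicate 3 (0.0622). The other losses were with median-of-ratios scaling (limma adjusted p = 0.0714), quantile normalization (0.0540) and centring per chromosome (0.0669). Between clones 42 and 17 the difference was 0.80 (SE 0.26, limma adjusted p = 0.0566), and it passed without clone 22 replicate 1 (limma adjusted p = 0.0411) or replicate 3 (9.90e-04). Without clone 22 replicate 3, clone 42 exceeded clone 15 with a limma adjusted p of 2.27e-04 and clone 22 by 1.75 (3.35e-05). Clone means gave 0.83 (SE 0.30) at an unadjusted limma p of 0.0212 and an adjusted p of 0.724.

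Fxyd5 held the larger part of the family's RNA in every group but the re-expressing one. It measured 14.0, 21.3 and 27.0 TPM in 1151 cells labelled knockout and 88.2, 91.4 and 92.2 TPM in the re-expressing cells. Again no library overlapped, with means 4.36-fold apart and a log2 difference of -2.12. The ratio of Fxyd5 to Fxyd3 TPM was 4.38, 2.98 and 20.5 in 1151 cells labelled knockout and 0.572, 0.624 and 0.509 in the re-expressing cells. In 2838 that ratio lay between 2.40 and 2.98 over both knockout clones and between 2.96 and 7.21 over both wild-type clones.

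In 2838, Fxyd5 had 127, 129 and 125 TPM in knockout clone 42 and 82.4, 72.7 and 71.7 TPM in knockout clone 17. Wild-type clone 15 had 86.3, 74.9 and 77.4 TPM, and wild-type clone 22 had 90.9, 80.9 and 144 TPM. Clone 22 replicate 3 was the only library above clone 42. Clone 42 exceeded wild-type clone 15 by a log2 of 0.67 (SE 0.18, limma adjusted p = 0.0311) and clone 17 by 0.75 (0.0147).

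The call against clone 15 was lost in 9 of 19 alternatives (limma adjusted p up to 0.167), among them the fits without WT15 replicate 2 (0.106), WT15 replicate 3 (0.0901), KO17 replicate 2 (0.05002), KO42 replicate 1 (0.0941), KO42 replicate 2 (0.0999) and KO42 replicate 3 (0.0898). The call against clone 17 was lost in 6 (limma adjusted p up to 0.0959), among them the fits without KO17 replicate 2 (0.0585), KO17 replicate 3 (0.0582), KO42 replicate 1 (0.0516) and KO42 replicate 2 (0.0525). The other losses against clone 15 were with median-of-ratios scaling (limma adjusted p = 0.158), quantile normalization (0.0544) and centring per chromosome (0.167). Against clone 17 they were with median-of-ratios scaling (limma adjusted p = 0.0959) and centring per chromosome (0.0702). Both calls passed without clone 22 replicate 3 (limma adjusted p = 1.28e-04 and 4.85e-05). Against clone 22 the log2 difference was 0.32 (SE 0.18, limma adjusted p = 0.280), and 0.56 (0.00111) without clone 22 replicate 3. On clone means it was 0.12 (SE 0.27, limma adjusted p = 0.999).

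**Figure D2:**
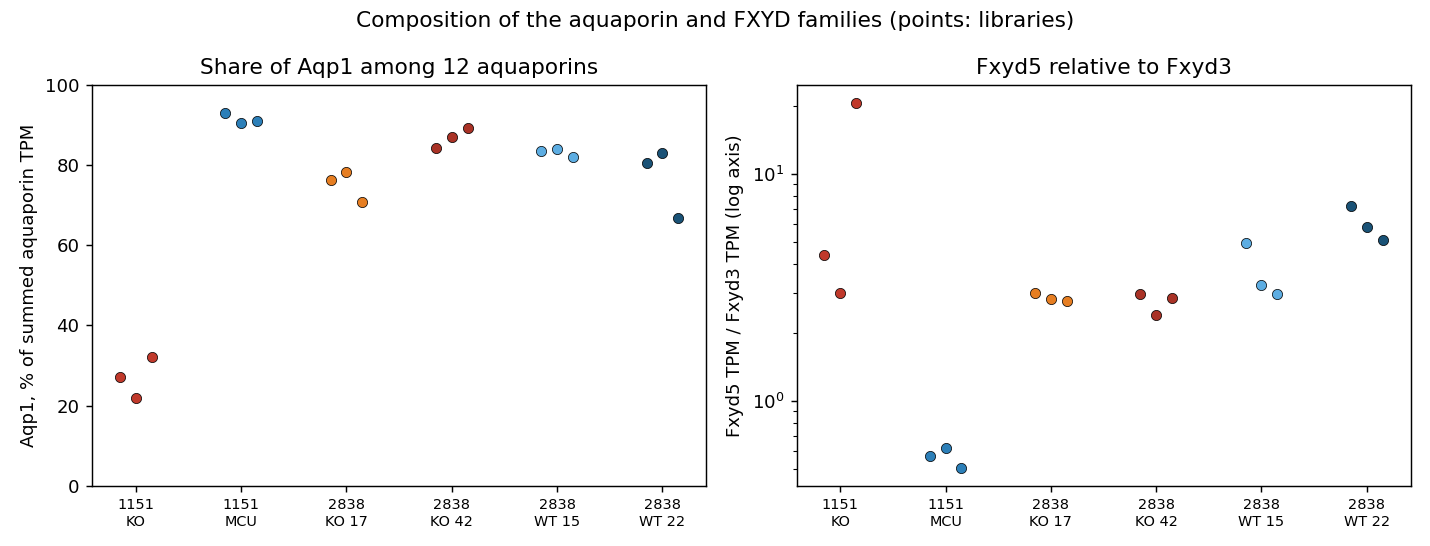
Left, Aqp1 as a percentage of the summed TPM of 12 aquaporins in each library; right, the ratio of Fxyd5 to Fxyd3 TPM on a log axis (points: libraries, 3 per group). The 1151 cells labelled knockout are at 22.0% to 32.1% and the re-expressing cells at 90.5% to 93.1%, and the re-expressing cells are the only ones with less Fxyd5 than Fxyd3.

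Atp1b1, the beta subunit that carries the sodium pump to the membrane, was abundant in both lines. It measured 72.8, 73.6 and 52.4 TPM in 1151 cells labelled knockout and 122, 126 and 105 TPM in the re-expressing cells, a log2 difference of -0.83 without overlap. In 2838 it had 161, 151 and 148 TPM in knockout clone 42 and 177, 183 and 176 TPM in knockout clone 17. The wild-type libraries ran from 146 to 196 TPM in clone 15 and from 157 to 257 TPM in clone 22.

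It was the only one of the 6 tested genes not highest in clone 42 by its mean. The difference of clone 42 from wild-type clone 22 was -0.48 (SE 0.17, limma adjusted p = 0.107) and -0.70 (9.42e-04) without clone 22 replicate 3. With all 12 libraries it passed after median-of-ratios scaling (-0.64, limma adjusted p = 0.00459), quantile normalization (-0.51, 0.0402) and centring per chromosome (-0.67, 0.00583). Without clone 22 replicate 3, knockout clone 17 was also below clone 22 (-0.48, limma adjusted p = 0.0107). With all 12 libraries that difference was -0.25 (limma adjusted p = 0.420). On clone means the log2 difference was -0.22 (SE 0.21, limma adjusted p = 0.999).

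Slc12a2 was lower in the 1151 cells labelled knockout, at 77.7, 68.6 and 69.2 TPM, than in the re-expressing cells, at 151, 146 and 146 TPM. The arms did not overlap and the log2 difference was -1.03. In 2838 it measured 215, 190.2 and 165 TPM in knockout clone 42 and 91.0, 97.0 and 95.5 TPM in knockout clone 17. Wild-type clone 15 had 125, 107 and 122 TPM. Wild-type clone 22 had 146, 133 and 39.0 TPM, and its replicate 3 was the lowest of all 18 libraries.

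With that library in the fit, clone 42 differed from clone 15 by 0.68 (SE 0.38, limma adjusted p = 0.308), from clone 22 by 1.04 (0.105) and from clone 17 by 0.99 (0.0991). Without it these values were 0.68 (SE 0.097, limma adjusted p = 4.24e-04), 0.44 (0.0129) and 0.99 (2.73e-05). With all 12 libraries, the differences from clones 22 and 17 passed after median-of-ratios scaling (limma adjusted p = 0.0375 and 0.0160), quantile normalization (0.0498 and 0.0241) and centring per chromosome (0.0345 and 0.00705). That from clone 15 passed with centring (limma adjusted p = 0.0334), and that from clone 22 also without clone 22 replicate 1 (0.0372). Without clone 22 replicate 3, clone 17 was lower than clone 15 (log2 difference -0.31, limma adjusted p = 0.0304) and than clone 22 (-0.55, 0.00557). On clone means the difference was 0.36 (SE 0.31, limma adjusted p = 0.999), and 0.063 (0.991) without clone 22 replicate 3.

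Cftr RNA was scarce. It measured 0.1504, 0.442 and 0.137 TPM in the 1151 cells labelled knockout, and in the re-expressing cells it was listed at 0 in 2 libraries and at 0.0120 TPM in the third. In 2838 it was 0.608, 1.18 and 1.02 TPM in knockout clone 17 and 0.116 to 0.172 TPM in knockout clone 42. The wild-type clones lay between 0.0694 and 0.314 TPM (clone 15) and between 0.0373 and 0.426 TPM (clone 22). Clone 17 was above every other library, but at these levels the gene did not enter a test.

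Counted together in 1151, 5 of the 6 genes above the filter were lower in every library labelled knockout than in any re-expressing one. Over all 11630 genes tested, 29.8% were lower without overlap. As the choice of genes used this contrast, nothing is read from that count.

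In 2838, limma called 4 of the 6 genes higher in knockout clone 42 than in wild-type clone 15 (Aqp1, Aqp5, Fxyd3 and Fxyd5), where 6.07% of all 11795 genes were called higher. Against wild-type clone 22 it called Aqp1 and Fxyd3 higher, 2 of 6, with a background of 5.78%. Against knockout clone 17 it called Aqp1, Aqp5 and Fxyd5 higher, 3 of 6, with a background of 8.23%. None was called lower in clone 42. In clone 17 limma called 0 of 6 against wild-type clone 15 (10.7% of all genes called, either direction; 0 of 6 at an unadjusted p under 0.05) and 0 of 6 against wild-type clone 22 (6.49%; 3 at an unadjusted p under 0.05). The 2 wild-type clones gave 0 of 6 (1.92%; 1 at an unadjusted p under 0.05). These contrasts share libraries.

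Without clone 22 replicate 3, the counts for clone 42 were 5 higher of 6 against clone 15 (17.5% of all genes called higher), 5 higher and 1 lower against clone 22 (9.92% higher, 17.2% lower) and 5 higher against clone 17 (20.1%). Clone 17 then had 1 lower against clone 15 (15.8% of all genes lower) and 1 higher and 2 lower against clone 22 (8.01% and 12.4%). Between wild-type clones 22 and 15, 1 was higher (4.22%) and 1 lower (2.64%). By levels alone, Aqp1, Fxyd3 and Slc12a2 were higher in all 3 libraries of clone 42 than in each of the other 9 (3 of 6; 9.72% of all genes), and 5 of 6 were so without clone 22 replicate 3 (10.8%).

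With knockout set against wild type, limma on clone means called 0 of the 6 (0.0763% of all genes called; 1 of 6 at an unadjusted p under 0.05). None was called in 1 direction in all 4 pairs of a knockout and a wild-type clone, as 1.01% of all genes were. Without clone 17, leaving clone 42 against 2 wild-type clones, the clone-mean fit called 3 of 6: Aqp1 (log2 difference 1.30, limma adjusted p = 4.70e-05), Fxyd3 (1.23, 0.00375) and Slc12a2 (0.86, 0.0202), where 3.42% of all genes were called. This fit keeps clone 22 replicate 3, the lowest library for Slc12a2. Without that library, the Slc12a2 differences of clone 42 from clones 15 and 22 were 0.68 and 0.44 by clone pair. The clone-mean fit also assumes that the lone clone varies like the wild-type clones. Without clone 42 it called 0 of 6 (2.30% of all genes; 0 of 6 at an unadjusted p under 0.05).

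**Figure D3:**
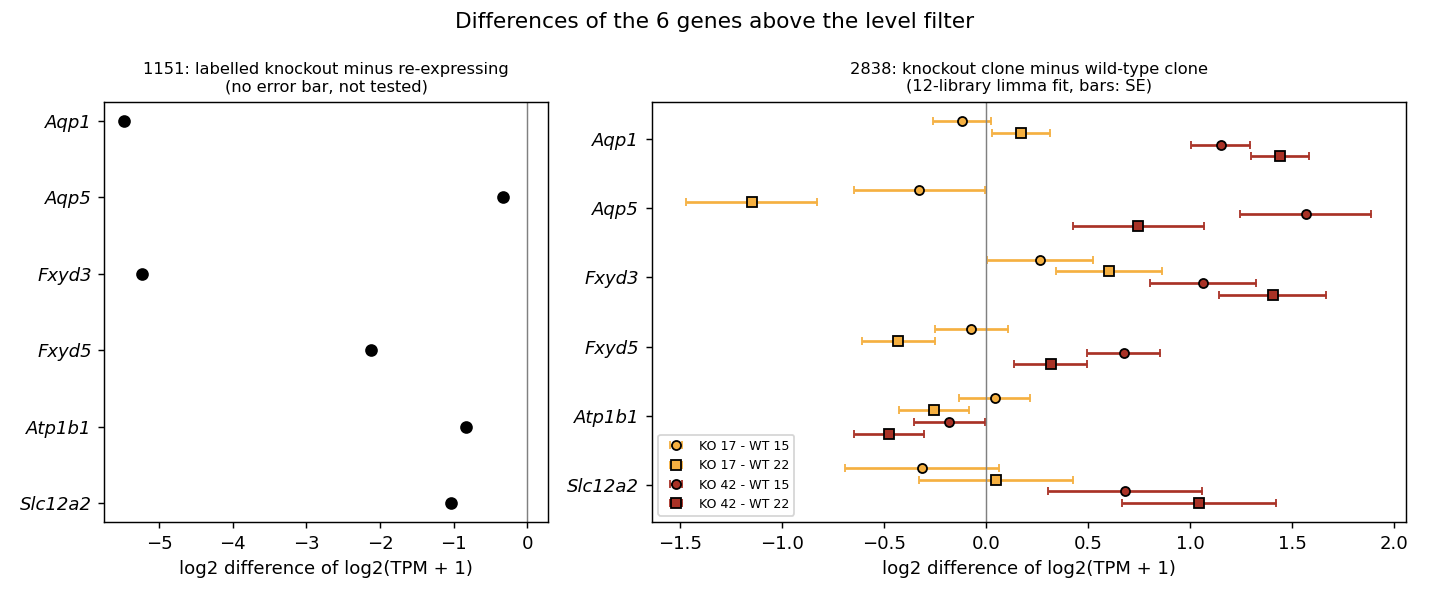
Differences in log2(TPM + 1) of the 6 genes above the level filter, in 1151 (left, labelled knockout minus re-expressing, without error bars or test) and in 2838 (right, each knockout clone minus each wild-type clone, bars are SE from the 12-library limma fit). The clone 42 points of Aqp1, at 1.15 and 1.44, lie right of zero and the clone 17 points, at -0.12 and 0.17, near it, while in 1151 all 6 points lie left of zero.

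Genes with a like profile over the 6 groups were sought by the root mean square difference between group means of log2(TPM + 1), each centred within its line, among 11679 genes. This was done for the genes whose group means spanned at least 2, which were Aqp1, Fxyd3 and Fxyd5. The nearest gene to Aqp1 was Fxyd3 and the nearest to Fxyd3 was Aqp1, at 0.17. Both were chosen for their fall in 1151, so their likeness within that line was set by the choice. Next to Aqp1 came Plac8 (0.27) and Syt8 (0.32), a synaptotagmin-family gene. Next to Fxyd3 came Syt8 (0.25) and Spink4 (0.29).

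Plac8 averaged 28.4 TPM in 1151 cells labelled knockout and 1281 TPM in the re-expressing cells, and in 2838 it averaged 2023 TPM in knockout clone 42, 1239 TPM in knockout clone 17 and 1207 and 1430 TPM in wild-type clones 15 and 22. Spink4 was below 1 TPM in every 2838 clone, so its likeness rests on 1151. Among the genes nearest to Fxyd5 were Celf4 (0.087) and Tmsb4x (0.11), which encodes the actin-binding peptide thymosin beta-4.

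**Figure D4:**
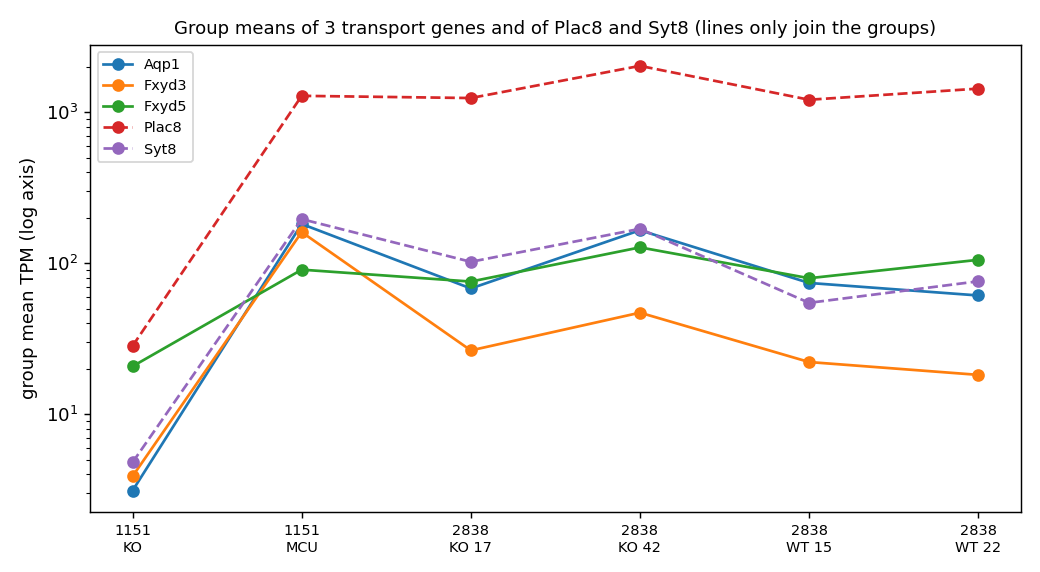
Group mean TPM (log axis) of Aqp1, Fxyd3 and Fxyd5 (solid) and of Plac8 and Syt8 (dashed) in the 6 groups; lines only join the groups of a gene. All 5 have their lowest mean in 1151 cells labelled knockout and, within 2838, their highest in knockout clone 42. Plac8 and Syt8 were picked for a like profile, and Aqp1 and Fxyd3 for their fall in 1151.

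The other genes of water and ion transport were taken from a list of 120 further genes in 9 groups, chosen with earlier results of these data known. In 1151, 63 could be tested, and 21 rose and 26 fell in the cells labelled knockout (74.6% called, against 61.0% of all 11630 genes, 34.0% higher and 27.0% lower). These tests compare 1 cell population per arm. The median log2 difference of the list was -0.079, beside 0.055 over all genes. In 2838 clone means, limma called 0 of 63 (5 at an unadjusted p under 0.05), with a median of 0.070 beside 0.075. Pairs of clones gave counts between 18 of 63 (knockout clone 42 against 17, 10 higher and 8 lower; 17.2% of all genes) and 1 of 63 (wild-type clone 22 against 15; 1.92%). Without clone 22 replicate 3 these were 34 of 62 (16 higher and 18 lower; 41.5% of all genes) and 7 of 62 (6.86%).

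The counts by group below stand beside shares over all genes in 1151 of 34.0% higher and 27.0% lower. No group was tested as a set. Of 9 further aquaporins, 2 were tested in 1151 and 1 fell. Aqp8 averaged 0.239 ± 0.237 TPM in 1151 cells labelled knockout and 5.77 ± 0.721 TPM in re-expressing cells (SD, n = 3 each; log2 difference -2.46, limma adjusted p = 2.63e-05). In 2838 it averaged 15.7 TPM in knockout clone 17 and 6.003 TPM in knockout clone 42, against 6.25 and 6.04 TPM in wild-type clones 15 and 22. No other FXYD gene passed the filter in either line.

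Both further pump subunits tested in 1151 fell. Among them was Atp1b3, another beta subunit, which averaged 91.9 TPM in knockout-labelled cells and 115 TPM in re-expressing cells (log2 difference -0.32, limma adjusted p = 0.00496). Of 4 cation-chloride cotransporters tested, 1 rose, 1 fell and 2 did not pass. The one that fell was the potassium-chloride cotransporter Slc12a7 (-0.96, limma adjusted p = 1.03e-04).

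Chloride channel genes were mixed, with 4 higher and 6 lower of 15. Lrrc8c, a subunit of volume-regulated anion channels, averaged 47.4 ± 1.23 TPM in 1151 cells labelled knockout and 16.8 ± 2.42 TPM in re-expressing cells (SD, n = 3 each; log2 difference 1.45, limma adjusted p = 3.03e-05). Clcn7, a lysosomal chloride-proton exchanger, also rose (0.49), while Clcn2 (-0.74) and Clic1 (-0.73) fell. In 2838, Clic5 was the only listed gene higher in all 4 clone pairs. It averaged 4.78 ± 0.461 TPM in knockout clone 17 and 10.4 ± 1.41 TPM in knockout clone 42, against 2.22 ± 0.264 and 2.23 ± 0.803 TPM in wild-type clones 15 and 22 (SD, n = 3 each). Its clone-mean difference was 1.34 (SE 0.38, limma adjusted p = 0.521). The all-pairs call of Clic5 was lost without any 1 of WT15 replicates 1, 2 and 3, KO17 replicates 1, 2 and 3 and KO42 replicate 2.

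Of 15 exchangers of bicarbonate, other anions and protons, 8 fell and 4 rose in 1151. The sulfate transporter Slc26a2 averaged 17.3 ± 0.963 TPM in knockout-labelled cells and 82.2 ± 4.10 TPM in re-expressing cells (SD, n = 3 each; log2 difference -2.18, limma adjusted p = 1.14e-06). Slc4a7, a sodium bicarbonate cotransporter, fell too (-0.96). Another of that kind, the ductal bicarbonate loader Slc4a4, rose (0.56), as did the scaffold Slc9a3r2 (0.37). Carbonic anhydrases were split, 3 higher and 3 lower of 7. Car9, a cell-surface isoform known as a hypoxia gene, fell (-3.08, limma adjusted p = 5.80e-05), as did the mitochondrial Car5b (-1.07), and Car2 rose (0.64). Of 5 sodium and potassium channels, 3 fell and 1 rose. Kcnn4, a potassium channel opened by calcium, averaged 73.0 ± 9.38 TPM in 1151 cells labelled knockout and 138 ± 2.91 TPM in re-expressing cells (SD, n = 3 each; log2 difference -0.92, limma adjusted p = 1.67e-04).

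In 1151, 8 of 13 regulators of transport rose and 2 fell, beside 34.0% and 27.0% of all genes. Their median was 0.50, beside 0.055 over all genes. The kinase Sgk1, which promotes sodium transport, averaged 209 ± 87.5 TPM in 1151 cells labelled knockout and 18.3 ± 1.498 TPM in re-expressing cells (SD, n = 3 each; log2 difference 3.34, limma adjusted p = 1.20e-04). Its relative Sgk3 rose (2.60), and Wnk4, a kinase upstream of the cation-chloride cotransporters, fell (-1.87). On 2838 clone means, 6 of 12 regulators had a difference above 0 (median -0.0031, beside 0.075 over all genes). There the log2 differences were -0.12 for Sgk1, -0.17 for Sgk3 and -0.37 for Wnk4 (limma adjusted p = 0.999 for each).

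**Figure D5:**
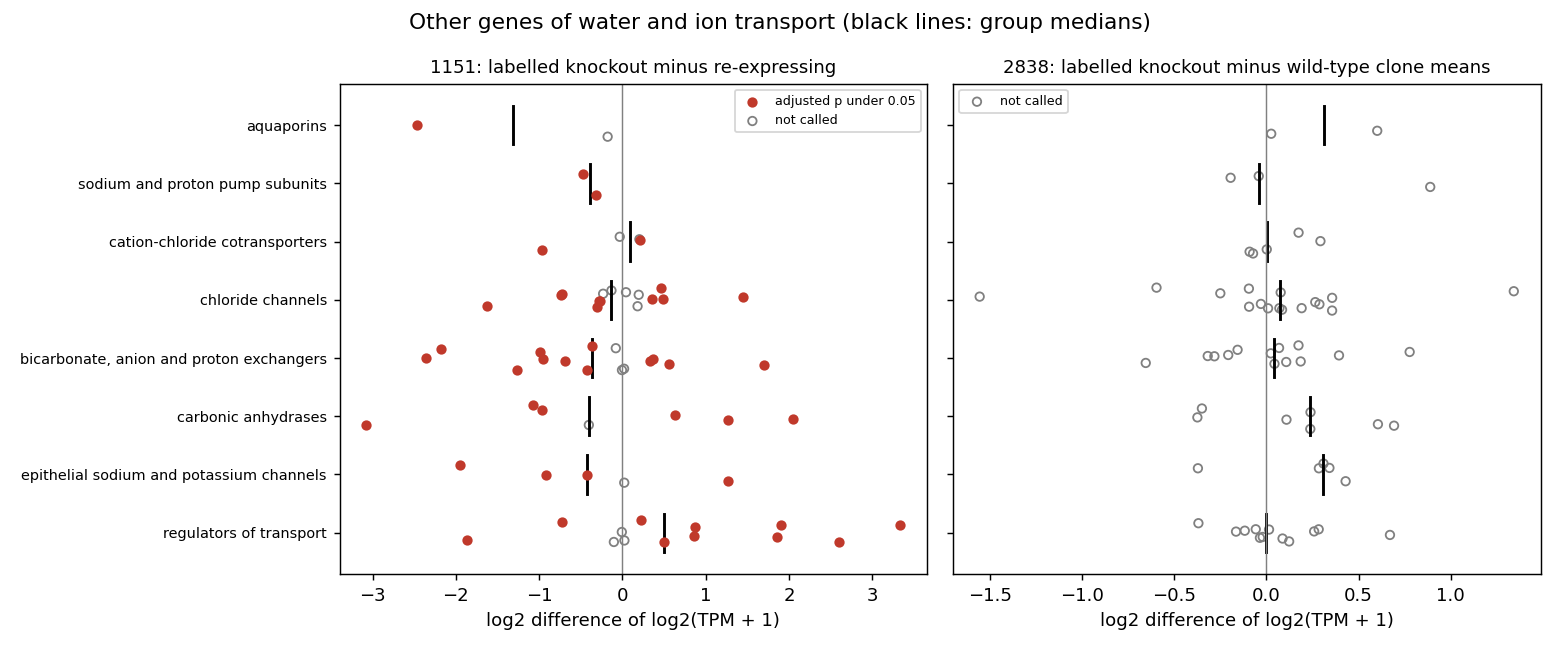
Differences in log2(TPM + 1) of the further transport genes in 1151 (left, labelled knockout minus re-expressing) and on 2838 clone means (right, knockout minus wild type), by group of the list. Red points have a limma adjusted p under 0.05 (47 of 63 in 1151, 0 of 63 in 2838), and black lines are group medians.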

How the data were processed

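PolyA RNA of 18 cultured libraries was compared. The authors deposited TPM per gene symbol in 1 table. Salmon, DESeq2 and mm10 are named, without roles, in the submitters' processing notes. Versions and the annotation were not given in the sources used here. TPM keeps no depth, so no counting interval is given, and a rise in abundant genes lowers all others. Columns summed to between 998353 and 998961 TPM. Columns were matched to samples by label.

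Tests used limma 3.58.1 (R 4.3.3) on log2(TPM + 1), a variance trend and Benjamini-Hochberg adjustment over all genes with 1 TPM in at least 3 libraries of the fit, and called at an adjusted p under 0.05. This scale understates changes of low genes. Line 1151 was fitted over 6 libraries. In 2838 the main unit was the clone mean, and a 12-library fit gave clone pairs and genes of 1 sign in all 4 pairs. Whether replicate libraries came from separate cultures is not stated, so p-values may measure technical spread. The fits were tested on simulated data. Genes, lists and tests were chosen with earlier results of these data known. Named list genes were, per group and line, up to 2 called rises and 2 called falls of largest size whose higher arm averaged 5 TPM or more, and for profiles the 3 nearest genes; some genes that this rule names are not reported here. The alternatives are given at the end.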

Additional observations from a re-analysis of the deposited data

Results flagged for a closer look

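Aqp1, Fxyd3 and Slc12a2 stood out because 1151 cells labelled knockout and knockout clone 42 of 2838 moved opposite ways. This difference between lines was not tested. The genes were chosen for the falls of Aqp1 and Fxyd3 in 1151, so that part was set in advance. In 1151 every library labelled knockout was below every re-expressing one. In 2838 every library of knockout clone 42 was above every wild-type library, by log2 differences of 1.30, 1.23 and 0.86 in that order. Without clone 22 replicate 3, the Slc12a2 differences of clone 42 from clones 15 and 22 were 0.68 and 0.44. Over all genes tested, 29.8% were lower without overlap in 1151. In 2838, 9.72% were higher in all libraries of clone 42 than in each of the other 9. The share with both was not counted. Clone 17, also labelled knockout, lay within the range of the 6 wild-type libraries for all 3 genes, a range that clone 22 replicate 3 widens. Without that library, clone 17 was called lower for Slc12a2 than clone 15 (-0.31, limma adjusted p = 0.0304) and clone 22 (-0.55, 0.00557), and higher for Fxyd3 than clone 22 (0.95, 0.00192).

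Aqp1, Aqp5 and Fxyd5 stood out because the knockout clones 42 and 17 differed from each other, with log2 differences of 1.27, 1.89 and 0.75 (limma adjusted p = 1.74e-04, 0.00219 and 0.0147). Mcu RNA also differed between these clones, at 11.4 ± 0.888 TPM in clone 42 and 119 ± 4.79 TPM in clone 17 (SD, n = 3 each), and its part in the result was not tested.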

How the results depend on the processing

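In 1151, the signs of the 6 differences held under every alternative tried, and the count of called genes (7098) stayed within 1.5 times. Centred per chromosome, the Aqp5 difference of -0.33 became -0.82, and all 6 genes were then lower without overlap. The median of the 452 genes tested on chromosome 15, where Aqp5 lies, was 0.45 before centring. Leaving out 1 library gave 5925 to 6993 calls over all genes and 38 to 41 in the transport list, which had 33 with a mean of 5 TPM and 53 with no filter. The balance of calls, 3958 higher and 3140 lower, turned to 3506 and 3613 with median-of-ratios scaling and 3208 and 3371 centred per chromosome. In 2838 the clone-mean count over all genes (9; 3 higher, 6 lower) was 0 with no filter (978 at an unadjusted limma p under 0.05), 3 with median-of-ratios scaling, 4 with quantile normalization (2 and 2), 2 centred per chromosome (1 and 1), 4 with no trend and 0 to 24 without 1 library (0, with 748 unadjusted, without WT22 replicate 3; 24 without WT22 replicate 2). It was 398 and 267 without clones 17 and 42, and 0 without clone 15 or 22 (333 and 373 unadjusted, limma). The all-pairs count of 119 (58 higher, 61 lower) was 193 and 215 with these scalings, 170 centred per chromosome (52 and 118), and 65 (without KO17 replicate 1 or 2) to 457 (without WT22 replicate 3). The transport list's 1 all-pairs call was 0 with no filter or a mean of 5 TPM, 2 with each scaling or centring, and 0 to 3 without 1 library. With the library as the unit, limma called 1155 genes, 2 of the 6 (Aqp1 and Fxyd3) and 10 list genes.

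Same-numbered libraries correlated at -0.029 to -0.15 in 1151 and at -0.092 to 0.196 in 2838, where no pair of a knockout and a wild-type clone had all 3 above 0.1, so the numbers were not taken to pair the libraries. With the replicate block, 6672 genes were called in 1151, 100 in all pairs of 2838, and with the library as the unit 964 genes, 2 of the 6 and 8 list genes.

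Clone-mean differences that were not called changed sign as follows: Fxyd5 to -0.0066 centred per chromosome, -0.25 without clone 42 and -0.057 without clone 15, Aqp5 to -0.74 and -0.20 without these clones, and Slc12a2 to -0.13 without clone 42. Without clone 22 replicate 3, clone-mean differences were 0.57 for Aqp1, 0.35 for Aqp5, 1.01 for Fxyd3 and 0.25 for Fxyd5. They were -0.33 for Atp1b1 and 0.063 for Slc12a2, and the lowest limma adjusted p was 0.733, for Fxyd3. The median difference of all genes in 2838 was 0.075, and -0.0012 after median-of-ratios scaling. The causes were not tested. Unknown depth limits what can be said of Aqp3 and Cftr.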

Other observations

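Some of the listed transport genes were not seen in these cells. Of 127 listed transport genes in the table, 12 were at 0 in all 18 libraries, among them the water channel Aqp4, the proton pump subunit Atp12a, the carbonic anhydrase Car4, the sodium channel subunit Scnn1g and the potassium channels Kcnj1 and Kcnj15. Another 34 stayed below 1 TPM in every library. These genes were named after their values were seen.

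Clic6, a chloride intracellular channel family gene also named after its values were seen, was at 0.126 TPM in 1151 cells labelled knockout and 0.0828 TPM in re-expressing cells. In 2838 it averaged 20.6 TPM in knockout clone 17 and 5.50 TPM in knockout clone 42, against 41.6 and 29.2 TPM in wild-type clones 15 and 22 (clone-mean log2 difference -1.56, limma adjusted p = 0.604).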
